A study of Mus musculus with 12 samples.

Results

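Described here are 10 genes of the NRF2 antioxidant pathway, namely Nfe2l2, Keap1, Nqo1, Gclc, Gclm, Txnrd1, Srxn1, Slc7a11, Gsr and G6pdx. They were found by symbol among the 54345 genes of the deposited expression table, and all 10 were among the 25044 genes that had FPKM above 0 in at least 3 libraries and were tested. The cells were H9c2(2-1), labelled as wild-type myoblasts, and they were left untreated (Unt) or treated for 6 h with doxorubicin (DOX), with doxorubicin and dexrazoxane (D_DXZ) or with doxorubicin and magnesium hexacyanoferrate nanocatalysts (D_MgHCF). Doxorubicin is an anthracycline chemotherapy drug that injures the heart, dexrazoxane (DXZ) is an iron-chelating drug given clinically against that injury, and the nanocatalysts (MgHCF NCs) are assembled with polyvinylpyrrolidone. All groups except Unt therefore received DOX, and cells given DXZ or MgHCF without DOX were not analysed here. H9c2 is an established line from embryonic rat heart, whereas the labels name Mus musculus and the table holds mouse genes with GRCm38 coordinates. How well the reads match each mouse gene was not tested, and levels and their order between genes may depend on it.

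Poly(A) RNA was sequenced in 12 libraries, 3 in each group, and each value is FPKM, the number of sequenced fragments per gene length, which the authors also scaled for the size of the library. The same values were also scaled to an equal FPKM sum per library (TPM) or to the summed reads, were quantile normalized, and were turned back into reads for limma's voom, which with the deposited FPKM makes 5 scalings. Depth was similar throughout, as the reads assigned to genes were at least 16626514 (a D_MgHCF library) and at most 19365119 (a DOX library). Replicate 3 of D_MgHCF stood apart from replicates 1 and 2. Its Pearson correlation of log2(FPKM + 1) was 0.942 with replicate 1 and 0.964 with replicate 2, against 0.984 between replicates 1 and 2 and at least 0.9895 within the other groups. Its share of reads on mitochondrial genes was 1.76%, compared with 3.16% and 2.90% in the other D_MgHCF libraries, 2.73% to 2.89% in DOX and 1.19% to 1.41% in Unt. Results for D_MgHCF are therefore given with all libraries and, for the values set beside them, without this one.

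The labelled cell type was only partly reflected in the markers. Of the 7 myoblast markers, Vim was the most abundant in every library, and the summed FPKM of the list was lowest in the D_MgHCF libraries (95.9 to 159), higher in Unt (222 to 270) and highest in D_DXZ (694 to 879) and DOX (871 to 1137). That sum was nearly all Vim, with means of 243 in Unt, 1042 in DOX, 783 in D_DXZ and 122 in D_MgHCF. Des went another way, with means of 1.46 in Unt, 0.552 in DOX, 0.542 in D_DXZ and 0.861 in D_MgHCF. Cdh15 and Chrna1 had their highest means in D_MgHCF (0.408 and 0.167). The defining myogenic factors Myod1, Myog and Myf5 were listed at 0 in 7, 10 and 10 of the 12 libraries and reached at most 0.126, 0.0510 and 0.0782 FPKM. Of the 8 cardiac muscle markers, 1 exceeded 1 FPKM, namely Gata4, with means of 10.3 in Unt, 3.35 in DOX, 2.93 in D_DXZ and 19.2 in D_MgHCF. The summed fibroblast list (5 genes, led by Col1a1 or Col1a2) was likewise highest in DOX (140 to 177) and D_DXZ (108 to 152), compared with 60.9 to 66.6 in Unt and 30.4 to 63.8 in D_MgHCF. Pdgfra of that list had its highest mean in Unt instead (0.718, against 0.352 in DOX, 0.433 in D_DXZ and 0.537 in D_MgHCF). The defining macrophage, endothelial and epithelial markers Ptprc, Adgre1, Kdr and Epcam stayed at or below 0.233 FPKM in all 12 libraries, whereas Cd68, which many cell types express, averaged 1.03 in Unt, 3.06 in DOX, 4.09 in D_DXZ and 3.26 in D_MgHCF. The endothelial (3 genes, led mostly by Pecam1) and epithelial (4 genes, led mostly by Krt8) sums were low but higher in D_MgHCF, at 0.237 to 0.989 and 0.425 to 1.63, than in the other groups, at no more than 0.200 and 0.233. In the deposited FPKM, the summed levels of all 6 marker lists, cardiac muscle and macrophage included, thus differed between groups. Their part in the results below was not tested. The FPKM sum over all genes also differed, at 2.169e+05 to 2.3029e+05 in Unt and 4.9876e+05 to 6.2777e+05 in DOX. It was 4.4705e+05 to 5.4968e+05 in D_DXZ and 2.2028e+05 to 2.91e+05 in D_MgHCF. Differences between marker sums therefore depend on the scaling, and the other scalings were not applied to them. In such bulk libraries, fewer cells of a type and less RNA per cell cannot be told apart.

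NRF2, the product of Nfe2l2, is a transcription factor that KEAP1 holds in the cytoplasm and passes to a ubiquitin ligase for degradation. Oxidants and electrophiles modify KEAP1, so that NRF2 escapes degradation, enters the nucleus and pairs with small MAF proteins at antioxidant response elements. Its classic targets make glutathione, reduce thioredoxin and peroxiredoxins, supply NADPH and detoxify quinones, and doxorubicin itself is a quinone that cycles electrons to oxygen. As NRF2 is controlled largely through protein stability, the level of its mRNA does not report its activity.

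In the deposited FPKM the pathway did not move as a block. A gene was called where limma on log2(FPKM + 1) gave a Benjamini-Hochberg adjusted p under 0.05 over the 25044 genes tested. Between DOX and Unt, 7 of the 10 genes were called, of which Nqo1, G6pdx and Srxn1 were higher in DOX and Nfe2l2, Keap1, Txnrd1 and Slc7a11 were lower, against 38.4% of all genes tested (18.6% higher and 19.9% lower), although Srxn1 turned lower in TPM and with summed reads. Between D_MgHCF and DOX, 8 were called (51.5% of all genes tested, 31.4% higher and 20.1% lower), with Nfe2l2, Gclc, Srxn1 and Txnrd1 higher in D_MgHCF and Nqo1, G6pdx, Gsr and Gclm lower, although in TPM and with summed reads Gclm turned higher and Nqo1 was no longer called. Between D_MgHCF and Unt, 6 were called (40.1% of all genes tested, 24.3% higher and 15.7% lower), namely Srxn1, Gclc and Nqo1 higher and Slc7a11, Gsr and Keap1 lower in D_MgHCF. Between D_DXZ and DOX, none of the 10 was called by limma, as was the case for 0 of the 25044 genes.

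All 10 genes are expressed, whereas many of the 25044 genes are near 0 and are seldom called. Among the 12434 genes with an FPKM of at least 1 in 3 libraries, which include all 10, a fit of these genes alone called 73% between DOX and Unt, 75.1% between D_MgHCF and DOX, 54.5% between D_MgHCF and Unt, 67.6% between D_DXZ and Unt and 70.3% between D_MgHCF and D_DXZ. Of the 10 genes it called 7, 9, 6, 5 and 8, so that in DOX vs Unt the genes were called about as often as expressed genes in general. Their median absolute log2 fold change was 0.73 between DOX and Unt and 1.02 between D_MgHCF and DOX, compared with 0.83 and 0.88 over these expressed genes and with 0.23 and 0.36 over all genes tested. The signed medians were -0.16 and -0.32, against 0.00 and 0.07 over all genes tested, since rises and falls were mixed. The comparisons with DOX and with Unt share control libraries and are not independent of each other. Nothing in the labels says that the 3 libraries of a group came from separate cultures, so the p-values measure the spread between these libraries, which may be technical.

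**Figure D1:**
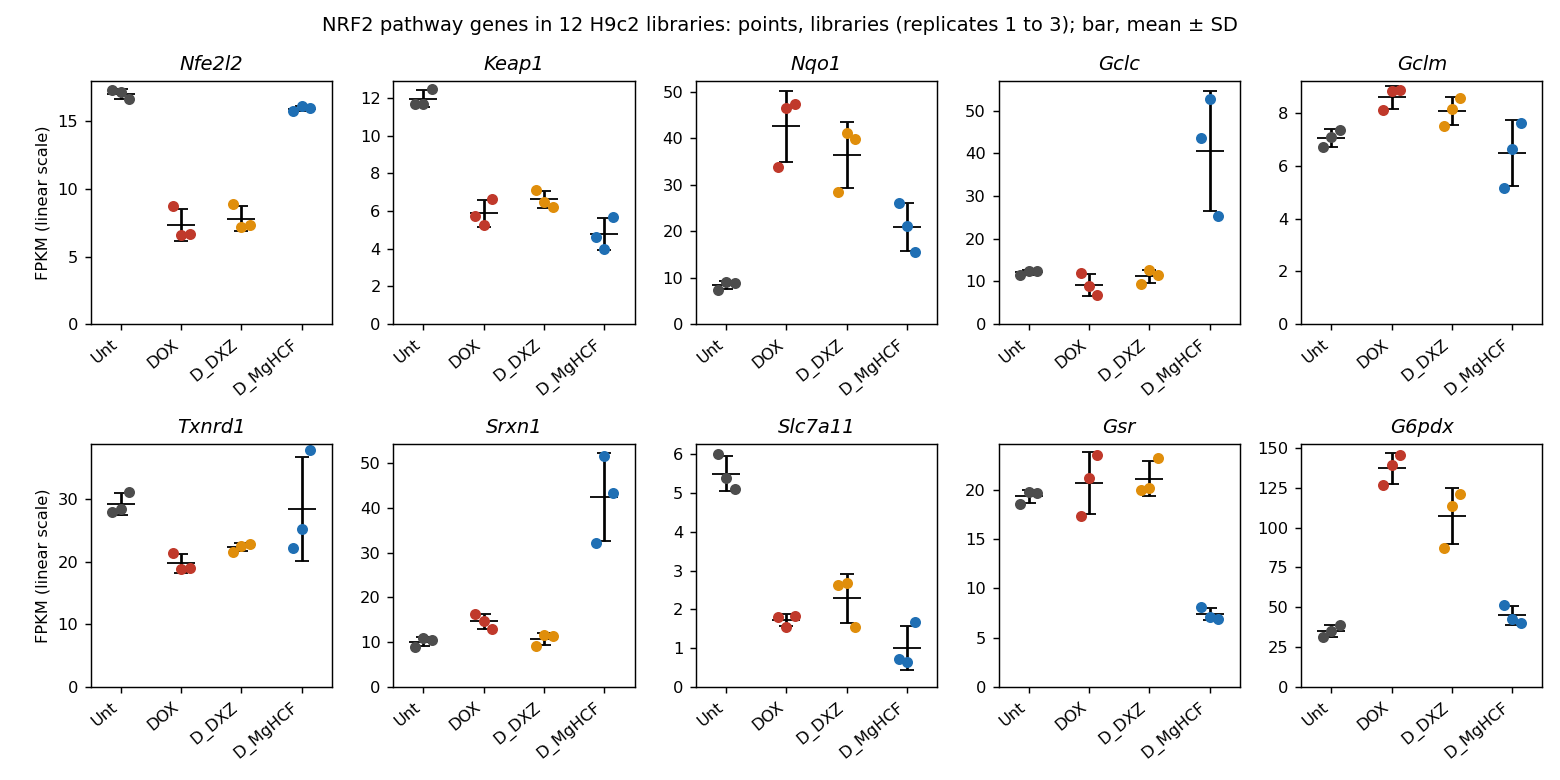
FPKM (y axis, linear, each panel on its own scale from 0) of the 10 genes in the 3 libraries (points) of each of the 4 groups (x axis), with bars for the mean and SD. Nfe2l2 lies near 17 in Unt and 16 in D_MgHCF but between 6.61 and 8.86 in DOX and D_DXZ, whereas Gclc and Srxn1 are high only in D_MgHCF among the 4 groups.

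**Figure D2:**
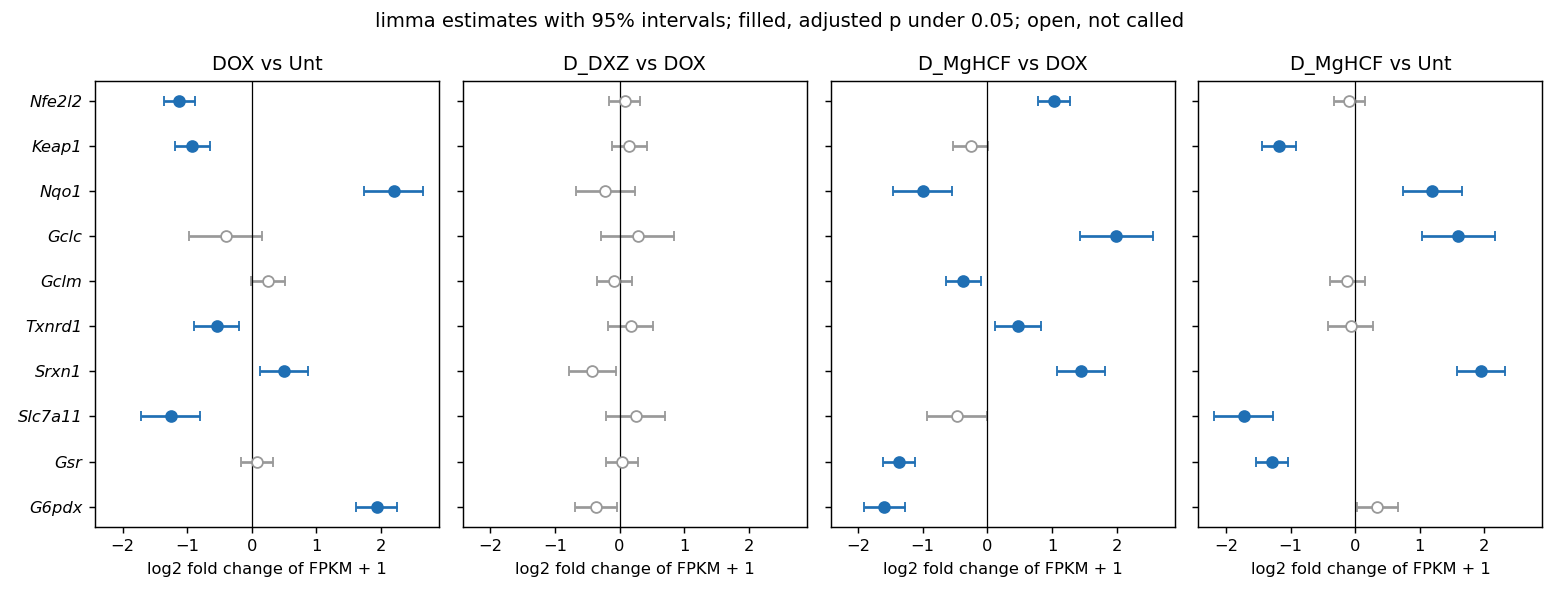
Log2 fold changes of FPKM + 1 (x axis) with 95% confidence intervals from limma for the 10 genes (y axis) in 4 comparisons, filled where the adjusted p is under 0.05. The intervals for D_DXZ vs DOX are all open, while 7, 8 and 6 genes are filled for DOX vs Unt, D_MgHCF vs DOX and D_MgHCF vs Unt.

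The regulator and its inhibitor fell together in DOX but parted in D_MgHCF. Nfe2l2 (ENSMUSG00000015839, chr2:75675513-75704641, minus strand) was at 17.3, 17.2 and 16.6 FPKM in Unt and at 8.73, 6.61 and 6.70 in DOX. The groups did not overlap, and the mean was 2.32-fold lower in DOX (log2 fold change -1.12 ± 0.11 (SE, n = 3 per group), limma adjusted p = 2.44e-05). In D_MgHCF the libraries were at 15.8, 16.1 and 15.97 FPKM, and their SD of 0.187 was the smallest of the 4 groups. All 3 lay above every DOX library (log2 fold change 1.03, adjusted p = 3.26e-05 in limma) and just below every Unt library, and the difference from Unt of -0.09 (95% confidence interval -0.33 to 0.15) was not called. Leaving out replicate 3 of D_MgHCF gave 1.03 against DOX and -0.09 against Unt. Nfe2l2 was thus high in Unt and D_MgHCF and low in DOX and D_DXZ.

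Keap1, the adaptor that targets NRF2 for ubiquitination (ENSMUSG00000003308, chr9:21229730-21239361, minus strand), was at 11.7, 11.7 and 12.5 FPKM in Unt. In DOX the libraries were at 5.74, 5.25 and 6.65 FPKM, all below Unt (log2 fold change -0.92 ± 0.12 (SE, n = 3 per group), limma adjusted p = 0.000137). D_MgHCF had 4.62, 4.01 and 5.70 FPKM, overlapping DOX in replicate 3, and the mean was 2.50-fold below Unt (log2 fold change -1.18, limma adjusted p = 8.3e-05; -1.29 without replicate 3). Unlike Nfe2l2, therefore, Keap1 lay far below Unt in D_MgHCF. Against DOX, Keap1 in D_MgHCF differed by -0.26 on the log2 scale (limma adjusted p = 0.0964). The sign turned in TPM (0.85) and with summed reads (0.55), and Keap1 was called higher in both. It was called lower at -0.37 without replicate 3 (adjusted p = 0.0114 in limma) and at -0.50 after quantile normalization. Keap1 overlaps Gm16754 on the opposite strand, which reached at most 1.20 FPKM, and reads of the 2 strands cannot be told apart where the library strand is not given.

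The ratio of Nfe2l2 to Keap1 within a library does not change when a library is multiplied by 1 factor, as in TPM or with summed reads, but quantile normalization can change it and was not run on the ratios. It was 1.48, 1.47 and 1.33 in Unt, 1.52, 1.26 and 1.01 in DOX, 1.24, 1.11 and 1.17 in D_DXZ and 3.41, 4.02 and 2.80 in D_MgHCF. All 3 D_MgHCF libraries lay above the 9 libraries of the other groups. The mean ± SD of the 3 libraries was 1.43 ± 0.0832 in Unt and 1.26 ± 0.257 in DOX but reached 3.41 ± 0.608 in D_MgHCF. The log2 difference was 1.44 from DOX and 1.24 from Unt (two-sided exact permutation test, p = 0.1 in each case, the smallest value that 3 against 3 libraries can reach). Without replicate 3 of D_MgHCF the difference was 1.57 from DOX and 1.38 from Unt. DOX and Unt differed by -0.20 (exact permutation p = 0.4). A total of 12 ratio tests were run, and the smallest adjusted p was 0.133.

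**Figure D3:**
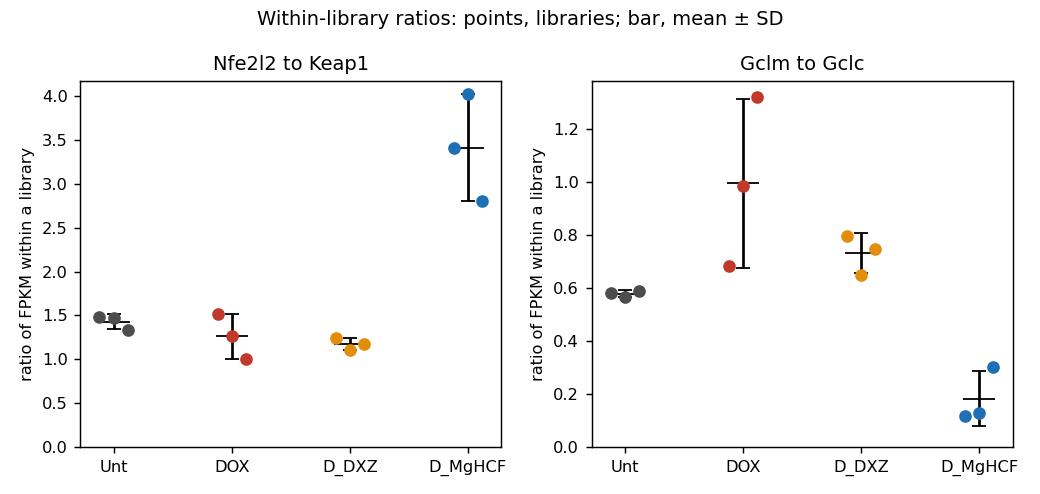
Within-library FPKM ratios (y axis, linear from 0) of Nfe2l2 to Keap1 and of Gclm to Gclc in the 4 groups (x axis), with points for the 3 libraries and bars for the mean and SD. The Nfe2l2 to Keap1 ratio is 2.80 to 4.02 in D_MgHCF and at most 1.52 in the other groups, and the Gclm to Gclc ratio is 0.118 to 0.302 in D_MgHCF and at least 0.564 in the others.

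As NRF2 acts through antioxidant response elements, the 250 bases before each transcript start (RefSeq, GRCm38.p6) were searched on both strands for the core letters TGACNNNGC. Entries were matched for 8 of the 10 genes, with 10 promoters, and none was matched for Gclc and Gsr. The letters occurred in 4 of the 10 promoters, those of Nfe2l2, Gclm, Txnrd1 (1 of 3 promoters) and G6pdx, and in 3338 of all 32851 promoters (10.2%, 95% exact binomial interval 9.84% to 10.5%). Their first base lay 240, 134, 92 and 57 bases before the start, and no match overlapped the AP-1 letters TGANTCA. Srxn1 had no core match but held TGANTCA 102 and 45 bases before its start, as did 6.75% of all promoters at least once. The stretches with these letters are shown in the direction of the gene, since antioxidant response elements and AP-1 sites hold these letters. Capitals mark TGACNNNGC or its reverse complement in the first 4 and TGANTCA in Srxn1. The Srxn1 match 45 bases before the start also fits looser letters, TGANNNNGC (TGAGTCAGC), which 35.2% of all promoters held at least once. Stretches end where an annotated exon of the gene begins, and for G6pdx, whose whole window lies in an exon of another transcript, 29 bases are shown. In the Nfe2l2 stretch an exon of E030042O20Rik is annotated on the opposite strand. Of the other NRF2 pathway genes listed further on, 11 of 44 with an entry held the core letters in at least 1 promoter, as did 4 of the 8 genes described here and 11.5% of all 27025 genes with an entry. These are sequences of the mouse genome, and whether the cells carry the same letters was not tested. A match is a description of the letters and not a measured binding site.
Nfe2l2, chr2:75704664-75704913, minus strand: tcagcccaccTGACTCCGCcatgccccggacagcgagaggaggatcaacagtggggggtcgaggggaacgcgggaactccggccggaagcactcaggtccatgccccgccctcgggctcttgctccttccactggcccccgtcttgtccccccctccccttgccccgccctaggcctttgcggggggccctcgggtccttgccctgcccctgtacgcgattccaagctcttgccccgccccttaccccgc
Gclm, chr3:122245307-122245556, plus strand: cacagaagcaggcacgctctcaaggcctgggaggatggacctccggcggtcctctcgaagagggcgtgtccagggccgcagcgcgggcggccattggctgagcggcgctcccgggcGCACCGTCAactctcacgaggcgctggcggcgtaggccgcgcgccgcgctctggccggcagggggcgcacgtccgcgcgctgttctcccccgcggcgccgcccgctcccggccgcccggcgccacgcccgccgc
Txnrd1, chr10:82858956-82859178, plus strand: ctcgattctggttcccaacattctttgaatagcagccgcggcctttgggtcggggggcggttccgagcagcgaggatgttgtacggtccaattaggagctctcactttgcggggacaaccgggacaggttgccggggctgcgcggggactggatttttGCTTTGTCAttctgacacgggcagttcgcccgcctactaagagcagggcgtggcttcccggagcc
G6pdx, chrX:74428919-74428947, minus strand: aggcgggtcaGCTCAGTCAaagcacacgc
Srxn1, chr2:152105274-152105515, plus strand: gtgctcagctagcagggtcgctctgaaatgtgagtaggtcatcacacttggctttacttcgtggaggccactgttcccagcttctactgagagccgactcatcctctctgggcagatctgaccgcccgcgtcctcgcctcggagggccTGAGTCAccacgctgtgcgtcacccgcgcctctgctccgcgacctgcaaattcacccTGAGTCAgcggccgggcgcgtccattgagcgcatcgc

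The genes with the core letters did not share a direction between DOX and Unt. Of the 4 with the core, G6pdx rose and Nfe2l2 and Txnrd1 fell in DOX relative to Unt, while Gclm was not called in the deposited FPKM and changed sign with the scaling.

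The quinone reductase and the first enzyme of the pentose phosphate pathway rose most in DOX. Nqo1 (NAD(P)H quinone dehydrogenase 1, ENSMUSG00000003849, chr8:107388225-107403206, minus strand) was at 7.40, 9.03 and 8.85 FPKM in Unt and at 33.8, 46.6 and 47.4 in DOX. No library of the 2 groups overlapped, and the mean was 5.06-fold higher in DOX (log2 fold change 2.20 ± 0.21 (SE, n = 3 per group), limma adjusted p = 2.09e-05), with 0.94 in TPM and 1.30 with summed reads. D_MgHCF, at 26.1, 21.2 and 15.6 FPKM, lay between the groups without overlapping either. The log2 fold change was -1.003 against DOX (limma adjusted p = 0.00226), which turned to 0.18 in TPM and was not called with summed reads (-0.07) or after quantile normalization (-0.31), and was -0.82 without replicate 3. Against Unt it was 1.20 (limma adjusted p = 0.00142; 1.38 without replicate 3), and it remained called under all 5 scalings.

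G6pdx, which encodes glucose-6-phosphate dehydrogenase and supplies NADPH (ENSMUSG00000031400, chrX:74409483-74429194, minus strand), had the highest mean level of the 10 genes in each group. It was at 31.5, 34.97 and 39.1 FPKM in Unt and at 126, 139 and 146 in DOX. The mean was 3.90-fold higher in DOX without overlap (log2 fold change 1.93 ± 0.14 (SE, n = 3 per group), limma adjusted p = 1.17e-05). The D_MgHCF libraries were at 51.6, 42.9 and 40.2 FPKM, 3.05-fold below DOX on average (log2 fold change -1.60, limma adjusted p = 1.4e-05; -1.52 without replicate 3). They lay just above every Unt library, and the difference of 0.34 had an adjusted p of 0.0839 in limma, or 0.0471 without replicate 3 (0.41). It was also called after quantile normalization (0.32), with summed reads (0.36) and without D_DXZ replicate 1 in the shared fit. The rise in DOX and the lower level in D_MgHCF than in DOX kept their direction and call under all 5 scalings, with log2 fold changes down to 0.59 and up to -0.40. Transcripts of G6pdx share a stretch with Ikbkg, which overlaps it on the opposite strand and reached at most 8.63 FPKM.

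The glutathione genes moved apart. Gclc, the catalytic subunit of glutamate-cysteine ligase and the rate-limiting enzyme of glutathione synthesis (ENSMUSG00000032350, chr9:77754535-77794485, plus strand), was at 11.5, 12.6 and 12.5 FPKM in Unt and at 11.9, 8.96 and 6.73 in DOX. The groups overlapped, and the log2 fold change of -0.40 was not called (limma adjusted p = 0.275), although it was called at -1.75 in TPM and -1.26 with summed reads. In D_MgHCF the libraries rose to 43.6, 52.8 and 25.3 FPKM, all above the 9 other libraries, with the lowest value in replicate 3. The mean was 4.41-fold that of DOX (log2 fold change 2.00 ± 0.25 (SE, n = 3 per group), limma adjusted p = 0.000101; 2.30 without replicate 3) and 3.32-fold that of Unt (1.59, adjusted p = 0.000914 in limma; 1.89 without replicate 3).

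Gclm, the modifier subunit of the same ligase (ENSMUSG00000028124, chr3:122245557-122270732, plus strand), was at 6.70, 7.08 and 7.38 FPKM in Unt and at 8.10, 8.82 and 8.86 in DOX. The libraries did not overlap, but the log2 fold change of 0.25 was not called (limma adjusted p = 0.136). It was called after quantile normalization (0.45), in a fit of the 2 groups alone (adjusted p = 0.015 in limma) and without D_MgHCF replicate 1 in the shared fit. It turned to -1.03 in TPM and -0.59 with summed reads, and Gclm was called lower in both. D_MgHCF had 5.15, 6.66 and 7.64 FPKM. The log2 fold change of -0.37 against DOX was called (limma adjusted p = 0.0245; -0.48 without replicate 3). It turned to 0.76 in TPM and 0.48 with summed reads, and Gclm was called higher in both. The call was lost with voom (adjusted p = 0.0816), in a limma fit of the 2 groups alone (adjusted p = 0.114) and without DOX replicate 2, DOX replicate 3 or D_MgHCF replicate 1. Stretches of annotated Gclm transcripts match 15 other genes over at least 150 bases at 95% identity or more, among them Ppia at up to 4766 FPKM, so the level of Gclm is uncertain.

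The ratio of Gclm to Gclc was 0.582, 0.564 and 0.589 in Unt, 0.681, 0.984 and 1.32 in DOX, 0.797, 0.647 and 0.748 in D_DXZ and 0.118, 0.126 and 0.302 in D_MgHCF. Every D_MgHCF library was below all others, and every DOX library was above Unt. The log2 difference was -2.54 between D_MgHCF and DOX and 0.73 between DOX and Unt (two-sided exact permutation p = 0.1 for both, the smallest possible). It was -2.98 between D_MgHCF and DOX without replicate 3. From Unt the D_MgHCF libraries differed by -1.81, or -2.24 without replicate 3. Both subunits enter this ratio, and the uncertainty of Gclm applies to it.

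Slc7a11, the cystine and glutamate exchanger that brings in cystine for glutathione synthesis (ENSMUSG00000027737, chr3:49892526-50443614, minus strand), had the lowest mean level of the 10 genes in each group. It was at 5.99, 5.38 and 5.11 FPKM in Unt and at 1.79, 1.55 and 1.83 in DOX. The mean was 3.19-fold lower in DOX (log2 fold change -1.25 ± 0.21 (SE, n = 3 per group), limma adjusted p = 0.000612). D_MgHCF had 0.721 and 0.649 FPKM in replicates 1 and 2 but 1.66 in replicate 3, which lay within the range of DOX. Against Unt the log2 fold change was -1.72 (limma adjusted p = 0.000187; -1.94 without replicate 3). Against DOX it was -0.47 with an adjusted p of 0.0799 in limma, it was called without replicate 3 (-0.69, adjusted p = 0.00512 in limma), after quantile normalization (-0.94), with voom (-0.85), with a pseudocount of 0.1 (-0.82) and among expressed genes alone, and its sign turned to 0.27 in TPM and 0.07 with summed reads. The exchanger therefore stayed low where Gclc was high. Stretches of its annotated transcripts match 11 other genes, among them Tuba1a, Tuba1b and Tuba1c at up to 976 FPKM, which makes its low level uncertain.

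Gsr, glutathione reductase (ENSMUSG00000031584, chr8:33652523-33698163, plus strand), was at 18.6, 19.8 and 19.7 FPKM in Unt and at 17.3, 21.2 and 23.5 in DOX. These groups overlapped, and the log2 fold change of 0.08 was not called (limma adjusted p = 0.693). It turned negative with every other scaling. Gsr was called lower in DOX in TPM (-1.26), with summed reads (-0.82) and after quantile normalization (-0.38), but not with voom (-0.06). The 3 D_MgHCF libraries, at 8.07, 7.13 and 6.92 FPKM, were all below the 9 other libraries. The mean was 2.81-fold below DOX (log2 fold change -1.37 ± 0.11 (SE, n = 3 per group), limma adjusted p = 8.83e-06; -1.33 without replicate 3) and 2.62-fold below Unt (-1.28, limma adjusted p = 3.89e-05; -1.24 without replicate 3). The direction and call held under all 5 scalings, but against DOX the log2 fold change was only -0.25 in TPM and -0.47 with summed reads. Gsr overlaps Gm24727 on the same strand, which reached at most 8.4 FPKM.

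In the thioredoxin branch, Srxn1 stood out in D_MgHCF. Srxn1, sulfiredoxin, which repairs overoxidised peroxiredoxins (ENSMUSG00000032802, chr2:152105516-152111376, plus strand), was at 8.92, 10.8 and 10.5 FPKM in Unt, at 16.4, 14.7 and 12.9 in DOX and at 32.2, 51.7 and 43.3 in D_MgHCF. None of these 3 groups overlapped. The mean in D_MgHCF was 2.89-fold that of DOX (log2 fold change 1.45 ± 0.17 (SE, n = 3 per group), limma adjusted p = 5.45e-05; 1.42 without replicate 3) and 4.20-fold that of Unt (1.95, limma adjusted p = 3.48e-05; 1.92 without replicate 3), and both differences were called under all 5 scalings. The smaller rise from Unt to DOX (0.50, limma adjusted p = 0.0369) was no longer called with no filter on low genes, after quantile normalization, with voom, without any 1 of the Unt libraries and without DOX replicate 1 or 2. It turned to -0.80 in TPM, which was called, and to -0.38 with summed reads, which was not.

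Txnrd1, the cytosolic thioredoxin reductase (ENSMUSG00000020250, chr10:82833951-82897712, plus strand), was at 28.0, 28.4 and 31.2 FPKM in Unt and at 21.5, 18.8 and 18.9 in DOX. The fall in DOX (log2 fold change -0.54 ± 0.16 (SE, n = 3 per group), limma adjusted p = 0.0191) was no longer called with no filter on low genes (adjusted p = 0.0546) or without Unt replicate 3, DOX replicate 2 or DOX replicate 3. It was larger, and called, after quantile normalization (-1.18), with summed reads (-1.45), in TPM (-1.90) and with voom (-0.70). D_MgHCF had 22.2 and 25.3 FPKM in replicates 1 and 2 and 37.9 in replicate 3, which was the highest of the 12 libraries. The log2 fold change against DOX was 0.47 (limma adjusted p = 0.0293), it was 0.26 without D_MgHCF replicate 3, and it was not called without DOX replicate 2 or 3, in a fit of the 2 groups alone (adjusted p = 0.123) or with no filter on low genes (0.0774). Larger values, all called, came after quantile normalization (1.07), with summed reads (1.40), in TPM (1.68) and with voom (0.54). Against Unt the log2 fold change was -0.07 with all libraries (limma adjusted p = 0.761) but -0.29 without D_MgHCF replicate 3 (adjusted p = 0.0184 in limma), so the level in D_MgHCF relative to Unt rested on that library. Eid3 overlaps Txnrd1 on the same strand, and Gm38560 and Gm47073 on the opposite strand.

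Whether DXZ changed the 10 genes in the presence of DOX was asked by comparing D_DXZ with DOX, where limma called no gene of the table. Nfe2l2 was at 8.86, 7.22 and 7.30 FPKM in D_DXZ, within the range of DOX or just beyond it (log2 fold change 0.08, 95% confidence interval -0.16 to 0.32). Nqo1 was at 28.4, 41.2 and 39.9 FPKM (-0.22, interval -0.68 to 0.24) and Gclc at 9.44, 12.6 and 11.5 FPKM (0.28, interval -0.28 to 0.84). Differences within these intervals were not excluded with 3 libraries a group. In 3 of the 10 genes the D_DXZ and DOX libraries did not overlap, compared with 16.3% of all genes tested. These were Srxn1, at 9.18, 11.5 and 11.5 FPKM in D_DXZ (-0.42), G6pdx, at 87.1, 114 and 121 FPKM (-0.36), and Txnrd1, at 21.6, 22.6 and 22.8 FPKM (0.17). Srxn1 and G6pdx had an unadjusted p under 0.05 (0.0303 and 0.0295, each with a limma adjusted p of 0.481), as did 2388 of all genes (9.54%). Keap1 in D_DXZ was at 7.14, 6.50 and 6.24 FPKM, Slc7a11 at 2.63, 2.67 and 1.55, Gclm at 7.52, 8.15 and 8.58, and Gsr at 20.02, 20.2 and 23.2, each overlapping DOX. Srxn1 in D_DXZ also overlapped Unt, with means of 10.7 ± 1.33 in D_DXZ, 10.1 ± 1.02 in Unt and 14.7 ± 1.74 FPKM in DOX (SD, n = 3).

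Relative to Unt, 5 of the 10 genes were called in D_DXZ (33.9% of all genes tested, 15.9% higher and 18% lower), with Nqo1 (log2 fold change 1.98) and G6pdx (1.57) higher and Nfe2l2 (-1.04), Slc7a11 (-1.001) and Keap1 (-0.77) lower. Slc7a11 was not called after quantile normalization (-0.65, limma adjusted p = 0.0745). Txnrd1 (-0.37, limma adjusted p = 0.105) was called once D_MgHCF replicate 3 was left out of the shared fit, in a fit of the 2 groups alone and after quantile normalization (-0.92). With TPM or summed reads all 10 were called, 2 higher and 8 lower. Of all 25044 genes tested, 913 were then higher and 10083 lower in TPM, and 1913 and 7946 with summed reads.

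The 2 treatments given with DOX were also compared directly. Between D_MgHCF and D_DXZ, 8 of the 10 genes were called (48.4% of all genes tested, 29.4% higher and 19% lower). Srxn1 (log2 fold change 1.87; 1.84 without replicate 3), Gclc (1.72; 2.02) and Nfe2l2 (0.95; 0.95) were higher in D_MgHCF under all 5 scalings. Gsr (-1.40; -1.36 without replicate 3) and G6pdx (-1.23; -1.16) were lower under all 5, but by less in TPM (-0.46 and -0.21) and with summed reads (-0.68 and -0.46), and G6pdx also after quantile normalization (-0.32). Nqo1 (-0.78) turned to 0.23 and Keap1 (-0.41) to 0.52 in TPM, where Keap1 was called and Nqo1 was not. Slc7a11 (-0.72, limma adjusted p = 0.015) was called although the libraries of the 2 groups overlapped, and the call was lost in TPM (-0.16), with summed reads (-0.27), in a fit of the 2 groups alone and without D_DXZ replicate 1, D_DXZ replicate 2 or D_MgHCF replicate 2. The call of Keap1 was lost in a fit of the 2 groups alone and without D_DXZ replicate 1 or D_MgHCF replicate 2, and that of Nqo1 with summed reads and after quantile normalization. Txnrd1 (0.30, limma adjusted p = 0.141) was called higher in D_MgHCF after quantile normalization (0.81), with summed reads (1.05), in TPM (1.34) and without D_MgHCF replicate 1 (0.46). Without replicate 3 it was at 0.08 and not called. Without replicate 3 of D_MgHCF, 9 were called, with Gclm added (-0.40), as were 14157 of all 25044 genes tested. With all libraries Gclm was also called lower after quantile normalization (-0.43) and with the replicate number as a block (limma adjusted p = 0.0359). In TPM (0.67) and with summed reads (0.40) it was called higher.

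How far the directions depended on the library scaling is shown by the 4 other scalings of the same values. The deposited FPKM imply a scaling that gives the libraries nearly equal medians, and the library size by which the values were divided was 1.32 to 1.38 times the summed reads in Unt and 1.26 to 1.43 times in D_MgHCF, but 0.647 to 0.784 times in DOX and 0.747 to 0.892 times in D_DXZ. Over genes with a mean FPKM of at least 1, the median log2 fold change between DOX and Unt was 0.05 in the deposited FPKM, 0.03 after quantile normalization and -0.07 with voom, but -0.69 with summed reads and -1.18 in TPM. Between D_MgHCF and DOX it was -0.09, -0.06 and -0.07, but 0.67 with summed reads and 0.99 in TPM. Over all genes, the calls between DOX and Unt were 4649 higher and 4973 lower in the deposited FPKM, 2075 and 8303 with summed reads, and 1111 and 10227 in TPM.

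The fold changes are therefore also given relative to that median. The subtraction takes out most of what a factor per library does, so a like sign under the deposited FPKM, TPM, summed reads and voom follows largely from how the values are made, whereas quantile normalization is not such a factor. Between DOX and Unt, 9 of the 10 kept the same sign under all 5 scalings, with Nqo1 1.87 to 2.26 above the median, G6pdx 0.71 to 1.90 above it and Nfe2l2 -1.17 to -1.32 from it. The exception was Gsr, which lay between -0.41 and 0.03. Between D_MgHCF and DOX all 10 kept their sign, with Gclc 2.08 to 2.46 and Srxn1 1.54 to 2.11 above the median, Gsr at -1.10 to -1.36 and G6pdx at -0.36 to -1.51. Whether the median itself moved cannot be told apart from the scaling without a reference of known amount.

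**Figure D4:**
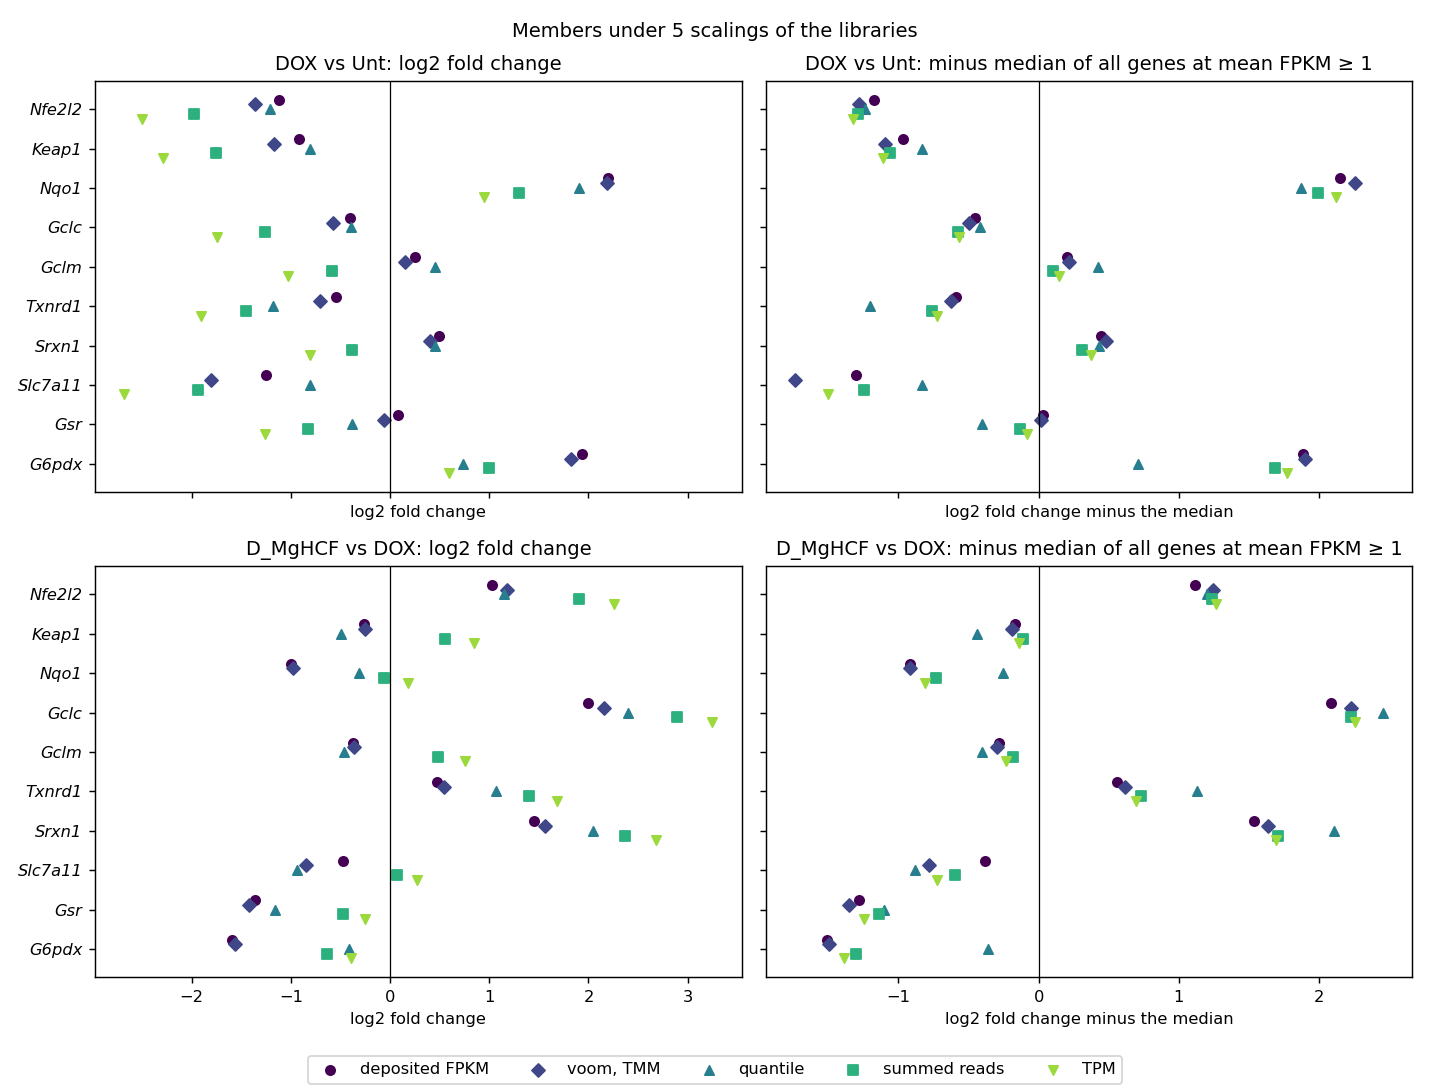
Log2 fold changes (x axis) of the 10 genes (y axis) under 5 scalings of the libraries (symbols), for DOX vs Unt and D_MgHCF vs DOX, as computed (left) and minus the median of genes with a mean FPKM of at least 1 (right). On the left several genes change sign between scalings, while on the right only Gsr does so, in DOX vs Unt.

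Beyond the 10 genes, 50 further genes of the pathway were listed by role, of which 49 were tested (Gpx2 was listed at 0). Between DOX and Unt, 40 of the 49 were called, 30 higher and 10 lower in DOX (38.4% of all genes tested, 18.6% higher and 19.9% lower), with 20 higher and 17 lower in TPM and 24 and 15 with summed reads. The median log2 fold change was 1.25 in the deposited FPKM, and relative to all genes with a mean FPKM of at least 1 it was 1.20, and between 0.49 and 1.39 under the other scalings. Between D_MgHCF and DOX, 34 were called, 11 higher and 23 lower in D_MgHCF (51.5% of all genes tested, 31.4% higher and 20.1% lower), but 26 higher and 9 lower in TPM, 22 and 13 with summed reads and 14 each after quantile normalization. Of all 25044 genes tested, 13504 were higher and 1691 lower in TPM, 12376 and 2401 with summed reads, and 4626 and 4914 after quantile normalization. Without replicate 3 of D_MgHCF, 36 were called, 12 higher and 24 lower, against 9515 higher and 5300 lower of all genes tested. The median with all libraries was -0.44, or -0.36 relative to all such genes (-0.40 to 0.06 under the other scalings). Among the expressed genes alone, 46 of the 49 were tested, and 41 were called between DOX and Unt (89.1%, against 73% of expressed genes) and 36 between D_MgHCF and DOX (78.3%, against 75.1%). Between D_MgHCF and Unt, 26 were called (40.1% of all genes tested), 20 higher and 6 lower, and 34 without replicate 3 of D_MgHCF, 27 higher and 7 lower. Without that library, 13046 of all 25044 genes tested were called, 8361 higher and 4685 lower.

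The groups of this list differed in direction. All 5 NADPH genes were higher in DOX than in Unt under all 5 scalings (18.6% of all genes tested and 37.1% of expressed genes in the deposited FPKM), for instance Idh1, cytosolic isocitrate dehydrogenase, whose mean rose from 12.2 ± 0.583 to 68.0 ± 8.31 FPKM (SD, n = 3; log2 fold change 2.39, limma adjusted p = 0.000148). All 5 were lower in D_MgHCF than in DOX in the deposited FPKM (20.1% of all genes tested and 39.2% of expressed genes), though 2 of the 5 were called in TPM and 1 of 3 called was higher after quantile normalization. Me1, malic enzyme, fell from 88.6 ± 13.98 in DOX to 15.3 ± 4.17 in D_MgHCF (SD, n = 3; log2 fold change -2.48), and it was lower under all 5 scalings. Without replicate 3 of D_MgHCF it was -2.37. Idh1 in D_MgHCF was at 43.7, 39.9 and 15.8 FPKM (-1.13 against DOX; -0.68 without replicate 3), which was not called in TPM (0.06), with summed reads (-0.19) or after quantile normalization (-0.25).

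Among the 4 thioredoxin genes, Prdx1 and Txn1 had the largest rises, and Sesn2 the largest fall, of the 49 genes in DOX in the deposited FPKM. Txn1, cytosolic thioredoxin, was at 160, 158 and 158 FPKM in Unt and at 746, 932 and 925 in DOX (log2 fold change 2.44, limma adjusted p = 3.16e-05). Prdx1, the peroxiredoxin that SRXN1 repairs, rose from 105 ± 4.30 to 605 ± 106 FPKM (SD, n = 3; 2.50, limma adjusted p = 1.71e-05). In D_MgHCF, Txn1 was at 327, 263 and 157 FPKM and Prdx1 at 203, 169 and 112 FPKM, both below every DOX library (-1.86 and -1.93; -1.56 and -1.69 without replicate 3). Both were lower under all 5 scalings, but Txn1 was not called after quantile normalization. Sesn2, a stress-induced inhibitor of mTORC1, moved the opposite way, from 27.4 ± 1.91 in Unt to 4.10 ± 1.55 in DOX and 21.4 ± 7.03 in D_MgHCF (SD, n = 3), with log2 fold changes of -2.52 between DOX and Unt and 2.13 between D_MgHCF and DOX (1.89 without replicate 3), called under all 5 scalings. Prdx1 has 2 near-identical copies at up to 30.3 FPKM and Me1 has 3 at up to 6.46 FPKM, and reads could be split between them.

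Of the 14 regulators and partners of NRF2, 11 were called between DOX and Unt (3 higher and 8 lower, but 0 and 10 in TPM), against 38.4% of all genes tested. Between D_MgHCF and DOX 10 were called (8 higher and 2 lower, or 9 and 2 without replicate 3), against 51.5%. Among the expressed genes alone, 13 were tested. Of these, 92.3% were called between DOX and Unt (73% of expressed genes) and 76.9% between D_MgHCF and DOX (75.1%). Gsk3b, a kinase that marks NRF2 for degradation through the SCF ligase, fell from 16.7 ± 0.460 in Unt to 2.50 ± 0.802 FPKM in DOX (SD, n = 3; log2 fold change -2.36). Fbxw11, an F-box subunit of that ligase, fell from 29.9 ± 1.11 to 6.41 ± 0.889 (SD, n = 3; -2.07). Both were higher in D_MgHCF than in DOX (1.54 and 1.03; 1.49 and 0.63 without replicate 3) and lower than in Unt (-0.83 and -1.04; -0.87 and -1.44 without replicate 3) under all 5 scalings. Cul3, the scaffold of the KEAP1 ligase, was at 20.9 ± 1.79 FPKM in Unt, 6.996 ± 0.458 in DOX and 8.25 ± 2.77 in D_MgHCF (SD, n = 3). Like Keap1, it was lower than in Unt in both (-1.45 and -1.28; the latter -1.51 without replicate 3). Dpp3, which binds KEAP1, was at 32.0 ± 3.71 in Unt, 73.4 ± 10.0 in DOX and 13.3 ± 1.88 in D_MgHCF (SD, n = 3), and lower in D_MgHCF than in either group under all 5 scalings, at -2.38 against DOX and -1.20 against Unt (-2.39 and -1.22 without replicate 3), whereas its log2 fold change of 1.17 between DOX and Unt turned to -0.17 in TPM.

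Transcription factors that share DNA sites with NRF2 did not all follow 1 pattern. Bach1, the repressor that competes with NRF2, was at 3.55, 3.36 and 2.77 FPKM in Unt, at 2.01, 1.20 and 1.34 in DOX, at 1.97, 1.78 and 1.91 in D_DXZ and at 7.29, 8.76 and 6.09 in D_MgHCF. The D_MgHCF libraries were above all 9 others (log2 fold change 1.74 against DOX, limma adjusted p = 1.54e-05, and 0.98 against Unt, limma adjusted p = 0.00103; 1.85 and 1.09 without replicate 3). Mafk, a small MAF partner, was at 6.40 ± 0.404 in Unt, 4.53 ± 1.90 in DOX and 25.9 ± 3.16 FPKM in D_MgHCF (SD, n = 3; 2.33 against DOX and 1.86 against Unt; 2.41 and 1.94 without replicate 3). Maff, another small MAF, was at 5.62 ± 0.295 in Unt, 15.5 ± 1.67 in DOX and 19.0 ± 7.35 in D_MgHCF (SD, n = 3), and replicate 3 of D_MgHCF, at 10.5 FPKM, lay below the DOX libraries. The log2 fold change of Maff against Unt was 1.51 (1.87 without replicate 3). Bach1 and Mafk were higher in D_MgHCF than in DOX under all 5 scalings. Bach2, a relative of Bach1 that was named after its values were seen, had its highest mean in Unt (1.13 ± 0.109 FPKM, against 1.04 ± 0.473 in D_MgHCF; SD, n = 3).

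Sqstm1, the autophagy receptor p62 that binds KEAP1, rested on a single library. It was at 169, 175 and 183 FPKM in Unt, at 114, 109 and 107 in DOX, at 103, 96.7 and 85.3 in D_DXZ and at 91.4, 99.1 and 229 in D_MgHCF. The value of 229 was in replicate 3. With all libraries the difference between DOX and Unt was not called (-0.66, limma adjusted p = 0.0902), although the groups did not overlap, and without D_MgHCF replicate 3 in the shared fit it was called. Against DOX, D_MgHCF was at 0.21 on the log2 scale with replicate 3 and -0.21 without it, and neither was called, although TPM gave 1.42 with a call. Mrnip overlaps Sqstm1 on the opposite strand at up to 2.90 FPKM.

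The 14 genes of haem, iron and detoxification followed the NADPH genes in DOX, with 11 higher and 1 lower in the deposited FPKM (18.6% and 19.9% of all genes tested, 37.1% and 36% of expressed genes) and 6 and 3 in TPM. The gene that fell was Hmox1, haem oxygenase 1, which breaks down haem and is among the best known NRF2 targets. It was at 33.2, 39.0 and 40.2 FPKM in Unt, at 16.7, 10.6 and 6.81 in DOX, at 13.2, 7.63 and 6.84 in D_DXZ and at 24.9, 47.6 and 94.8 in D_MgHCF. The DOX libraries were below all Unt libraries (log2 fold change -1.71, limma adjusted p = 0.0102), and those of D_MgHCF were above all DOX libraries (2.08, limma adjusted p = 0.00288; 1.60 without replicate 3), both under all 5 scalings. The D_MgHCF libraries spread widely, with the highest value in replicate 3. Among the 12 glutathione genes tested, 8 were higher in DOX than in Unt and none was lower (6 and 3 in TPM, 7 and 2 with summed reads). For all genes tested these shares were 18.6% higher and 19.9% lower, and for expressed genes 37.1% and 36%. In D_MgHCF, 5 were lower than in DOX and none was higher (31.4% higher and 20.1% lower for all genes tested, 35.9% and 39.2% for expressed genes), but in TPM 5 were higher and none was lower. In TPM, 13504 of all 25044 genes tested were likewise higher in D_MgHCF than in DOX, and 1691 were lower. In the deposited FPKM, Gsta4, a glutathione transferase for lipid aldehydes, rose from 22.6 ± 2.03 in Unt to 93.2 ± 4.95 FPKM in DOX and was at 94.0 ± 3.62 in D_MgHCF (SD, n = 3), with log2 fold changes of 2.00 and 2.01 against Unt, the latter also 2.01 without replicate 3. The like level in DOX and D_MgHCF and the size of the rise depend on the scaling. The FPKM sum over all genes was 4.9876e+05 to 6.2777e+05 in DOX but 2.2028e+05 to 2.91e+05 in D_MgHCF.

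**Figure D5:**
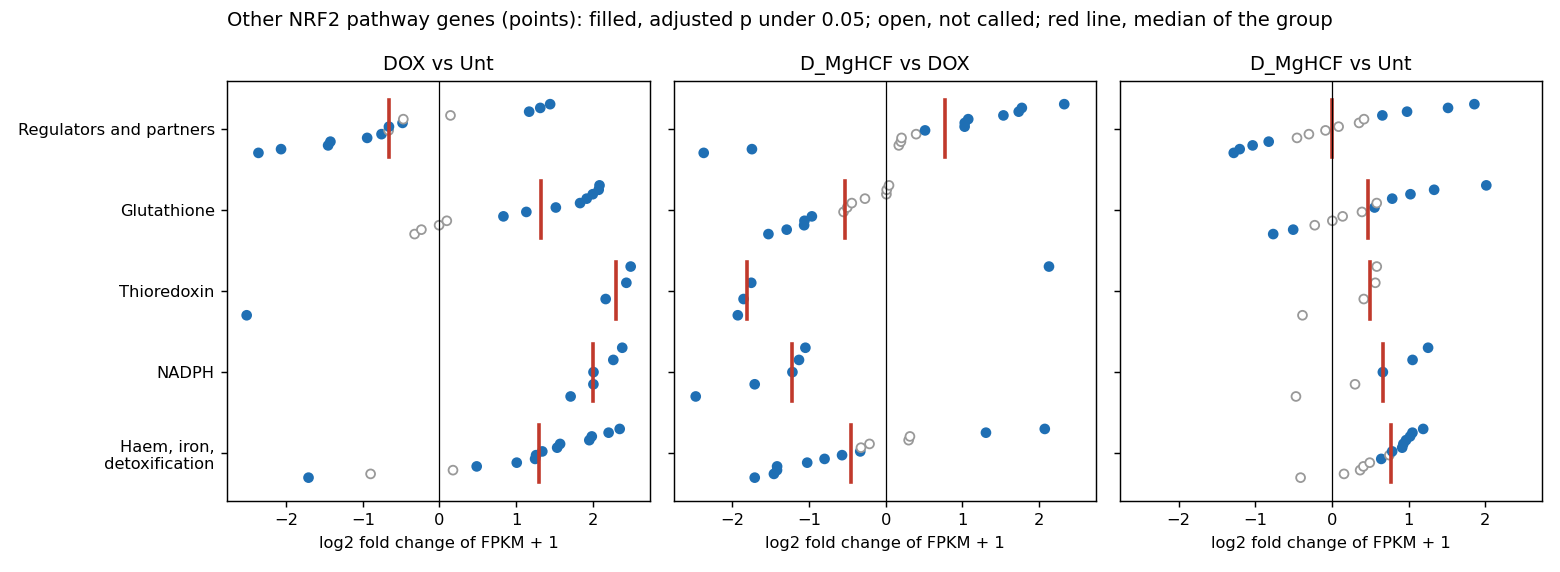
Log2 fold changes of FPKM + 1 (x axis) of the 49 other NRF2 pathway genes (points), by role (y axis), in DOX vs Unt, D_MgHCF vs DOX and D_MgHCF vs Unt, filled where called and with a red line at the median of each role. In DOX vs Unt the medians in the deposited FPKM are -0.66 for regulators, 1.33 for glutathione, 2.30 for thioredoxin, 2.01 for NADPH and 1.30 for haem, iron and detoxification genes. In TPM, which is not drawn, they are -2.03, 0.49, 0.96, 0.69 and 0.10 in the same order. The median of genes with a mean FPKM of at least 1 is then -1.18.

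Between D_DXZ and DOX, limma called none of the 49 genes, and 6 had an unadjusted p under 0.05, against 9.54% of all genes tested. Against Unt, 39 were called in D_DXZ (33.9% of all genes tested), 28 higher and 11 lower (15 and 18 in TPM, 22 and 15 with summed reads). Over all genes tested, 913 were higher and 10083 lower in TPM, and 1913 and 7946 with summed reads. Between D_MgHCF and D_DXZ, 30 were called (48.4% of all genes tested), 11 higher and 19 lower (26 and 8 in TPM, 23 and 10 with summed reads). All genes tested gave 12801 higher and 1559 lower in TPM, and 11426 and 2382 with summed reads. Without replicate 3 of D_MgHCF, 34 were called, 14 higher and 20 lower, against 9059 higher and 5098 lower of all genes tested. Relative to Unt, D_DXZ had less Hmox1 (log2 fold change -1.96), Sqstm1 (-0.88) and Bach1 (-0.55) and more Txn1 (2.24), with the same direction under all 5 scalings, although Bach1 was not called after quantile normalization. Relative to D_DXZ, D_MgHCF had more Hmox1 (2.32; 1.85 without replicate 3) and Bach1 (1.52; 1.64 without replicate 3) and less Txn1 (-1.65; -1.35 without replicate 3), again with the same direction under all 5 scalings. Sqstm1 was not called there in the deposited FPKM (0.43; 0.0066 without replicate 3). Relative to Unt, D_MgHCF was at 0.37 for Hmox1 and 0.58 for Txn1, neither of which was called, while without replicate 3 Hmox1 was at -0.11 and Txn1 was called at 0.88.

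The order of the 10 genes by FPKM, which is per gene length, changed between groups. In Unt it ran from G6pdx through Txnrd1, Gsr, Nfe2l2, Gclc, Keap1, Srxn1, Nqo1 and Gclm to Slc7a11, and Gclc overlapped Keap1 as Srxn1 did Nqo1. In DOX, Nqo1 moved up to the second place, Gsr overlapped Txnrd1, and the libraries of Gclc overlapped those of Gclm, Gclm those of Nfe2l2 and Nfe2l2 those of Keap1, while Keap1 lay above Slc7a11 without overlap. In D_DXZ the 2 genes at the top were the same. In D_MgHCF, G6pdx, Srxn1, Gclc, Txnrd1 and Nqo1 each overlapped the gene after it, ending with Nfe2l2. Nfe2l2 lay above Gsr without overlap, Gsr overlapped Gclm and Gclm overlapped Keap1, and Slc7a11 lay below them all.

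Over the 12 libraries and 11516 genes with a mean FPKM of at least 1, the genes whose log2(FPKM + 1) was most like that of Nfe2l2 were Ticrr (Pearson r = 0.995), Chd8 (0.994), Csnk1d (0.993), Phf23 (0.992) and Golga2 (0.992). Of the other 9 genes, Txnrd1 was the most alike (0.777, rank 2621 of 11516) and G6pdx the least (-0.98, rank 11258). Gclc (0.605), Srxn1 (0.358), Keap1 (0.341) and Slc7a11 (0.272) had positive values, while Gsr (-0.588), Gclm (-0.756) and Nqo1 (-0.889) had negative ones. These are descriptions across libraries of 4 groups that share treatments, and not tests. All 10 genes have the same GRCm38 coordinates in GENCODE M21 as in the deposited table. No overlapping or near-identical gene was found for Nqo1, Srxn1 and Gclc, and a gene within Nfe2l2, Gm24996, is annotated on the same strand.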

How the data were processed

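RNA of 12 libraries (3 each of Unt, DOX, D_DXZ and D_MgHCF, grouped by the labels) was read as 150 bp paired ends on a NovaSeq after poly(A) selection. Values are FPKM as deposited by the authors, and the submitters' processing notes name HISAT2 2.0.5 and GRCm38/mm10. The read counter, annotation release, library strand and drug doses in the sequenced cells are not given in the sources used here. Fold changes are on the log2(FPKM + 1) scale, which understates changes of low genes. limma 3.58.1 (R 4.3.3; trend, all 4 groups in 1 fit, no covariate) was run over 25044 genes with Benjamini-Hochberg adjustment within each of 6 comparisons. All values came out as whole reads (100% within 0.05), which voom used as an alternative. Ratios were compared by two-sided exact permutation tests (20 relabellings). Near-identical genes were sought with BLAST 2.17.0, and promoters came from RefSeq (GRCm38.p6). The further pathway genes named were the 3 largest rises and 3 largest falls per comparison with DOX and Unt among called genes without overlap and with a group mean of at least 1 FPKM, plus Hmox1, Bach1, Sqstm1 and Txn1, and the 5 genes most correlated with Nfe2l2. Members and lists were chosen with earlier results of these data known. On simulated data for DOX vs Unt over 25044 genes, 56 of 100 changes of 1 and 93 of 100 changes of 2 (log2) were recovered. Changes were planted only in these genes, all of a higher mean level, whereas 9622 genes were called in the data. The adjusted threshold therefore differs, and the shares recovered do not carry over to the data. Alternatives were another pseudocount (0.1), filters, scalings, fits of 2 groups, a 2-fold minimum, a replicate block and leaving out each library. No per-sample column was left out.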

Additional observations from a re-analysis of the deposited data

How the results depend on the processing

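The direction of most fold changes held, and those that turned did so mainly with the 2 scalings that move the median of all genes. In TPM and with summed reads, respectively, Gclm turned to -1.03 and -0.59 (DOX vs Unt), 0.082 and 0.085 (D_DXZ vs DOX; 0.0068 with voom), 0.76 and 0.48 (D_MgHCF vs DOX), -0.95 and -0.50 (D_DXZ vs Unt) and 0.67 and 0.40 (D_MgHCF vs D_DXZ). Srxn1 turned to -0.80 and -0.38 (DOX vs Unt) and -1.07 and -0.62 (D_DXZ vs Unt), Gsr to -1.26 and -0.82 (DOX vs Unt; -0.38 after quantile normalization and -0.058 with voom) and -1.05 and -0.61 (D_DXZ vs Unt; -0.22 after quantile normalization), Keap1 to 0.85 and 0.55 (D_MgHCF vs DOX) and 0.52 and 0.25 (D_MgHCF vs D_DXZ), and Slc7a11 to 0.27 and 0.069 (D_MgHCF vs DOX). Nqo1 turned in TPM to 0.18 (D_MgHCF vs DOX) and 0.23 (D_MgHCF vs D_DXZ). The cause was not tested.

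Leaving out 1 library moved Gsr from -0.013 to 0.20 (DOX vs Unt) and from -0.080 to 0.13 (D_DXZ vs DOX), Nfe2l2 from -0.0058 to 0.20 (D_DXZ vs DOX), Srxn1 from -0.0005 to 0.18 (D_DXZ vs Unt), Gclm from -0.23 to 0.015 and Txnrd1 from -0.29 to 0.084 (D_MgHCF vs Unt), and the log2 Nfe2l2 to Keap1 ratio from -0.24 to 0.058 (D_DXZ vs DOX). Of the 10 genes, 5 to 8 were then called in DOX vs Unt, 6 to 10 in D_MgHCF vs DOX, 6 to 8 in D_MgHCF vs Unt, 5 to 6 in D_DXZ vs Unt, 6 to 9 in D_MgHCF vs D_DXZ and 0 in D_DXZ vs DOX. In the same order, 8462 to 10957, 10648 to 14815, 7241 to 13046, 7075 to 10048, 10056 to 14157 and 0 to 6 of all 25044 genes were called. With a 2-fold minimum, 4 were called in DOX vs Unt and 4 in D_MgHCF vs D_DXZ, and 13 of the further genes in D_MgHCF vs Unt. In D_DXZ vs Unt all 10 were called in TPM and with summed reads, against 10996 and 9859 of all 25044 genes tested. At an unadjusted p under 0.05, D_DXZ vs DOX had 2 of the 10 and 6 of the further genes. The looser letters TGANNNNGC were in 8 of the 10 promoters of the genes described and in 35.2% of all promoters.

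Over all genes, a 2-fold minimum took the calls from 9622 to 5006 (DOX vs Unt), 12890 to 5711 (D_MgHCF vs DOX), 8494 to 3746 (D_DXZ vs Unt), 10037 to 2816 (D_MgHCF vs Unt) and 12115 to 4864 (D_MgHCF vs D_DXZ), and a fit of 2 groups gave 6218 in D_MgHCF vs Unt. In D_DXZ vs DOX the 0 calls became 6 (pseudocount 0.1), 2 (FPKM of at least 1 in 3 libraries), 3 (no filter), 3 (quantile normalization) and 0 to 6 without 1 library.

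Of 18 correlations of deviations between same-numbered libraries, 2 were over 0.1 (range -0.314 to 0.306). Both were in D_DXZ vs DOX (0.306 for replicate 1 and 0.220 for replicate 3, with 0.0334 for replicate 2). Whether the replicate numbers pair these 2 groups is therefore not settled. The block below was fitted over all 4 groups, and no block was fitted on D_DXZ and DOX alone. With the replicate number as a block, 7 (DOX vs Unt), 0 (D_DXZ vs DOX), 8 (D_MgHCF vs DOX), 5 (D_DXZ vs Unt), 6 (D_MgHCF vs Unt) and 9 (D_MgHCF vs D_DXZ) of the 10 genes were called. Of all 25044 genes tested, 9405, 0, 12618, 8271, 9552 and 11782 were called with the block, in the same order. Gclm was the gene gained in D_MgHCF vs D_DXZ (limma adjusted p = 0.0359). Slc7a11 had 211, 230 and 568 recovered reads in D_MgHCF, the first the lowest count of the 10 genes in any library, and 379, 277 and 294 in DOX.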
